A study of Mus musculus with 2 samples.

Results

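The 40 genes described here encode inflammatory cytokines, cytokine receptors, Toll-like receptors (TLRs) with their co-receptors and adaptors, NOD-like receptors and inflammasome components, and the transcription factor NF-kB with its inhibitors. They were chosen by function and symbol with earlier results of these data known, as were the gene lists set beside them. All 40 were matched among 36458 gene symbols in the deposited tables. Their mRNA levels were read from RNA-seq of the cells of an injured liver that adhered to a culture dish within 2 h of plating. The study named them hepatic stromal cells, a name that is set against marker genes below. The study used these cells to compare gene expression in livers with and without the forkhead transcription factor Foxf1 in myofibroblasts, the collagen-producing cells that arise from hepatic stellate cells (HSCs). Both groups were adult male mice of the C57/Bl6 strain that received carbon tetrachloride (CCl4), a hepatotoxin, for 5 weeks. The control library came from Foxf1 fl/fl mice, in which both alleles of Foxf1 carry loxP sites and no Cre recombinase is present. The other library came from αSMACreER;Foxf1 fl/fl mice, labelled knockout and called αSMACreER;Foxf1-/- here, in which a tamoxifen-inducible Cre is driven by the α-smooth muscle actin (αSMA) promoter. Tamoxifen was used during the CCl4 period to activate the Cre, and the labels do not say whether it was also given to the control animals of these libraries. The αSMA promoter is known for its activity in myofibroblasts and smooth muscle cells, and whether cells of other types lost Foxf1 cannot be read from these libraries. Foxf1 itself was not analysed here. There was 1 library per genotype, made from pooled samples, so replicates could not be compared for any difference below and p-values are not given.

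TLRs bind microbial molecules or RNA and DNA from damaged cells, at the cell surface or in endosomes. Through adaptors such as MYD88 they release NF-kB from its inhibitors, and NF-kB switches on genes for tumour necrosis factor (TNF), interleukin-1 (IL-1), IL-6 and also for the inhibitors that end the response. In injured liver, Kupffer cells (the resident macrophages) and recruited monocytes are the best known source of these cytokines, while HSCs and endothelial cells carry receptors for them and TLRs of their own.

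The unit was FPKM, fragments per kilobase of transcript relative to all mapped fragments, as deposited. Differences are log2(FPKM + 0.1) of αSMACreER;Foxf1-/- minus Foxf1 fl/fl after scaling by the median ratio, which divided the αSMACreER;Foxf1-/- values by 1.02. A gene is said to have risen or fallen where it passed 1.5-fold (0.585 on the log2 scale) at a mean FPKM of at least 1. Intervals are approximate 95% intervals for counting error only, from a rough estimate of 9841470 mapped reads in Foxf1 fl/fl and 11358213 in αSMACreER;Foxf1-/-. An equal FPKM sum in both libraries, as another scaling, shifted the median of all genes from 0.0059 to 0.21, so every direction below holds relative to that shift. In bulk RNA, fewer cells of a type and less RNA per cell cannot be told apart.

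The labelled cell type was checked against marker genes. The paper describes the purified cells as positive for Des and Acta2 and without markers of hepatocytes and Kupffer cells. Des, the HSC intermediate filament desmin, had an FPKM of 1.703 in Foxf1 fl/fl and 3.29 in αSMACreER;Foxf1-/- cells, Acta2 (αSMA) had 7.77 and 5.65, and Pdgfrb, a receptor of HSCs, had 1.03 and 1.43. The macrophage genes Clec4f (1117 and 753), Adgre1 (162 and 165) and Cd68 (646 and 679) were far above these in both libraries. The 18 macrophage markers summed to 13999.7 and 11667, none was at 0, 2 of them fell (Clec4f and, named after its value was seen, Cd163) and their median difference was −0.32. Neutrophil markers moved most with genotype among leukocyte lists. Of 10 neutrophil markers 9 fell, their sum went from 2324 to 928, with S100a8 at 625 and 256, S100a9 at 1258 and 504, and Ly6g at 9.82 in Foxf1 fl/fl and listed at 0 in αSMACreER;Foxf1-/- cells. All 12 hepatocyte markers, led by Alb, Ttr and Apoa1, fell, with a sum of 4288 and 1856. Kupffer cell and hepatocyte mRNAs were thus not lacking in either library, and the values below are not those of stromal cells alone. The 15 HSC and myofibroblast markers summed to 345 and 494, 10 passed the filter, 2 of those rose (Des and, named after its value was seen, Hgf), and the median was 0.51. Of 10 monocyte markers, which summed to 1052 and 1220.1, 2 rose (Cx3cr1 and Itgam, named after their values were seen) and the median was 0.25, with Ly6c2 at 166 and 234, Ccr2 at 6.06 and 9.09 and F13a1 at 10.9 and 9.52. With the trend of the differences with transcript length removed, as described below, the medians were −0.065 for macrophage, −1.04 for neutrophil, −1.30 for hepatocyte, 0.20 for HSC and 0.088 for monocyte markers, and 0 of 10 monocyte markers rose. The part of these cell types in the differences below was not tested.

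Of the 40 genes, 39 passed the filter, and Tlr5, the flagellin receptor, did not, with an FPKM of 0.1995 and 0.258 from about 7.11 and 10.6 estimated reads. The least covered of the other 39 had about 120 reads. These were abundant mRNAs: 19 of the 39 were in the top 10% of expressed genes in Foxf1 fl/fl and 20 in αSMACreER;Foxf1-/- cells. Together the 40 genes summed to an FPKM of 9371 and 7914, or 1.24% and 1.19% of each library's total. The order of their levels was nearly the same in both libraries (Spearman's rho 0.99 over 39 genes, which share the libraries and are not replicates).

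**Figure D1:**
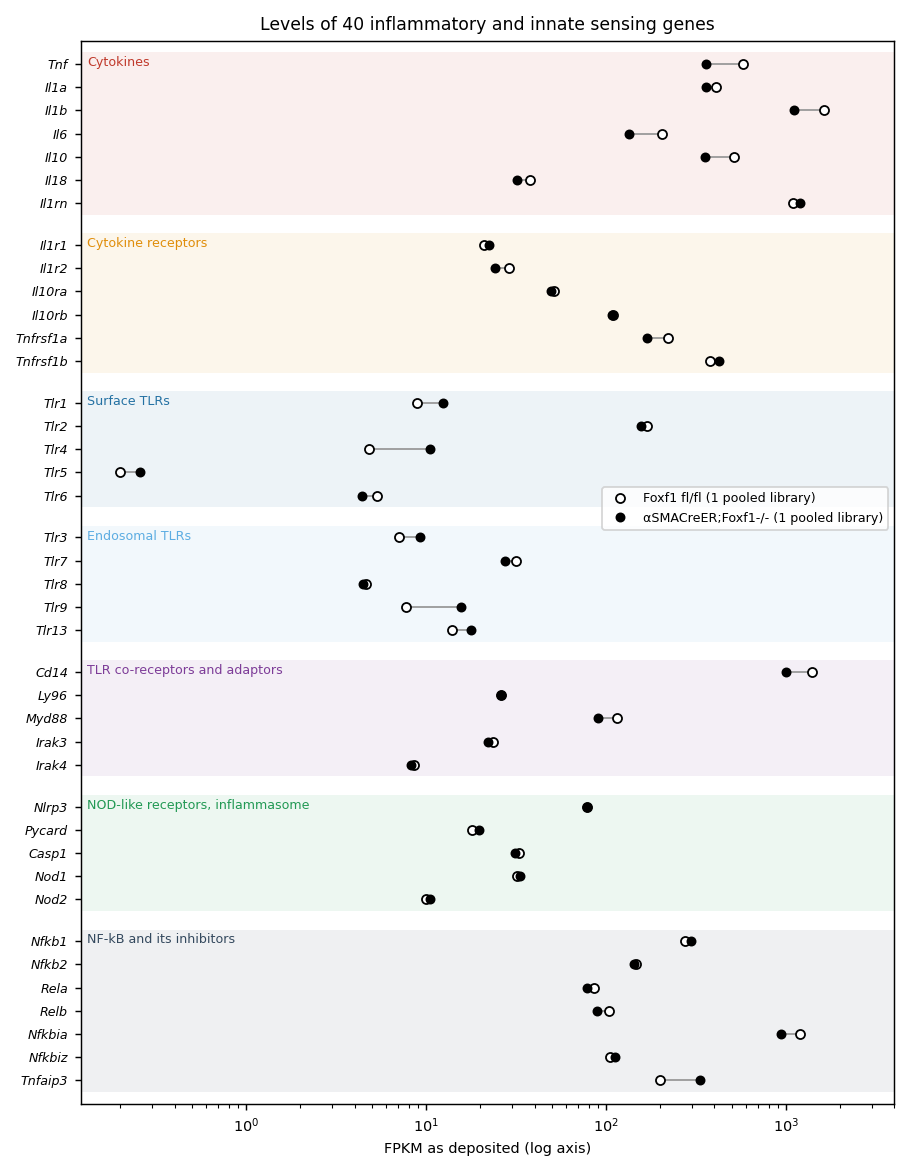
FPKM of each of the 40 genes on a log axis, with Foxf1 fl/fl as open and αSMACreER;Foxf1-/- as filled circles, 1 pooled library each, grouped by role. Cytokines and Cd14 lie to the right with values from 32.1 to 1623, most TLRs lie below 32, and the widest gaps are those of Tlr4, Tlr9, Tnf and Tnfaip3.

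Tlr4, Tlr9 and Tnfaip3 rose in αSMACreER;Foxf1-/- cells, and Tnf and Il6 fell. These 3 of 39 (7.69%) stood against 12.8% of all 12692 genes tested that rose, and these 2 of 39 (5.13%) against 13.2% that fell, so both shares were below the background. All 5 also had a counting interval that left out no change. With that required too, 11.6% of all genes tested rose and 11.4% fell. Among all genes, 1470 of the 1627 rises and 1444 of the 1671 falls had such an interval. The median difference of the 39 genes was −0.077, the range was −0.70 to 1.09, and 25 were below 0 and 14 above. Within 0.25 of no change on the log2 scale lay 22 of the 39 (56.4%), against 39.6% of all genes tested. That comparison was not matched for level, since the median FPKM in Foxf1 fl/fl was 78.4 for the 39 genes and 9.18 for all genes tested. With an equal FPKM sum 13 of the 39 were below 0 and 26 above, and the median was 0.12.

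**Figure D2:**
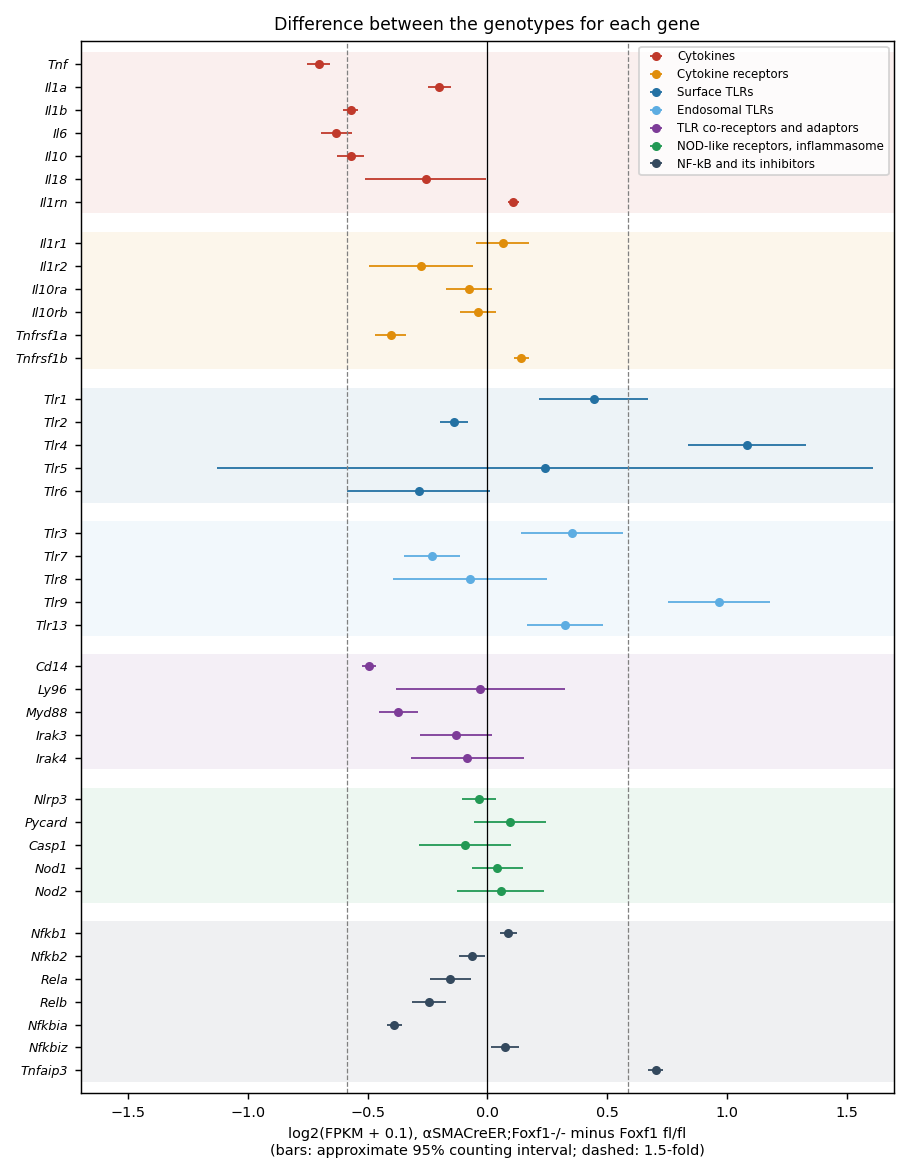
Difference between the genotypes on the log2(FPKM + 0.1) scale for each gene, with bars for the approximate 95% counting interval and dashed lines at 1.5-fold. Tlr4, Tlr9 and Tnfaip3 lie right of the upper line and Tnf and Il6 left of the lower one, Il1b and Il10 lie just inside it, and the long bar is that of Tlr5, which did not pass the filter.

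Among the cytokines, the pro-inflammatory Tnf and Il6 fell and the other 5 genes stayed inside 1.5-fold. Neither Tnf nor Il6 passed 1.5-fold with an equal FPKM sum (−0.50 and −0.43) or with the length trend removed (−0.46 and −0.54). Tnf, the founding member of its cytokine family (chr17:35199381-35202007, minus strand, GRCm38), had an FPKM of 575 in Foxf1 fl/fl and 359 in αSMACreER;Foxf1-/- cells. Its difference was −0.70 with an interval from −0.75 to −0.66. Il6 (chr5:30013114-30019981, plus strand), which drives the acute-phase response of hepatocytes, had 205 and 135, and its difference was −0.63 (−0.70 to −0.57). Both were thus lower by about 1.6-fold (1.63 for Tnf and 1.55 for Il6), from about 8153 and 5875 estimated reads for Tnf and 4322 and 3276 for Il6.

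Il1b and Il10 came close to the threshold without passing it. Il1b, the IL-1 form that caspase-1 processes, was the most abundant of all 40 genes in Foxf1 fl/fl cells, with 1623 there and 1111 in αSMACreER;Foxf1-/- cells. Its difference was −0.57 (−0.60 to −0.54). Il10, which restrains macrophage activation, had 516 and 354 and the same difference, −0.57 (−0.63 to −0.52). Thus the anti-inflammatory Il10 and the pro-inflammatory Il1b had differences of one size on this scale. The ratio of Tnf to Il10 was 1.11 in Foxf1 fl/fl and 1.02 in αSMACreER;Foxf1-/- cells. Its log2 difference was −0.13, and −0.24 with the length trend described below removed. Il1a, an alarmin made without inflammasome cleavage, had 405 and 359 (−0.20), and Il18, the other caspase-1 substrate, had 37.8 and 32.1 (−0.26).

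Il1rn, the secreted antagonist of the IL-1 receptor, was the only cytokine gene above 0, with 1095 and 1202 (0.11). The ratio of Il1b to its antagonist therefore went from 1.48 to 0.925, a difference of −0.68 on the log2 scale (−0.72 to −0.64). With the length trend described below removed that difference was −0.47. The antagonist was the more abundant mRNA in αSMACreER;Foxf1-/- cells. As a group, 6 of 7 cytokine genes were below 0 with a median of −0.57, and with an equal FPKM sum 5 of 7 were below 0 with a median of −0.37. Their summed FPKM was 4458 and 3551.

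Cytokine mRNAs are known to be short-lived because proteins that bind AU-rich stretches of the 3′ UTR speed their decay, and the core of such a stretch reads TATTTAT in DNA letters. The 30 bases of the 3′ UTR with the most such cores are shown for the 5 cytokines that hold any, read from the GENCODE M21 transcripts on GRCm38 in the direction of the gene, with the cores in capitals (adjoining cores overlap and merge).
Tnf (chr17:35199678-35199707, minus strand): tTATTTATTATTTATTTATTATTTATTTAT
Il1a (chr2:129300103-129300132, minus strand): tctatgTATTTATaaataTATTTATgataa
Il1b (chr2:129364802-129364831, minus strand): cttaccTATTTATTTATgTATTTATtgatt
Il6 (chr5:30019727-30019756, plus strand): atttatgattgaTATTTATtatttttatga
Il10 (chr1:131024384-131024413, plus strand): ctctctccgaaaTATTTATtacctctgata

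Over its whole 3′ UTR Tnf held 8 cores, counted with overlaps, Il10 held 4, Il1a and Il1b held 3 each and Il6 held 1, while Il18 and Il1rn held 0. The motif was searched in the direction of the gene on the longest annotated transcript. At least 1 core was present in 14 of the 39 genes (35.9%), against 28.8% of 11505 genes tested that have an annotated 3′ UTR. At least 3 cores were present in 6 of the 39 (15.4%), namely Tnf, Il10, Il1a, Il1b, Il10ra and Tlr3, against 3.68% of those 11505. These 6 genes had a median difference of −0.39, and all genes with at least 3 cores had 0.29. After removal of the length trend described below the values were −0.17 and 0.025. The transcripts also differed in length, with a median of 1806.5 bases for the 6 genes and 5281 for the wider set.

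Of the cytokine receptors none passed 1.5-fold in either direction. Tnfrsf1b, the TNF receptor found mainly on immune and endothelial cells, was the most abundant, with 379 in Foxf1 fl/fl and 426 in αSMACreER;Foxf1-/- cells. Its difference was 0.14 (0.11 to 0.17). Tnfrsf1a, the TNF receptor of most cell types that carries a death domain, had 221 and 169.7 (−0.40). The ratio of Tnfrsf1b to Tnfrsf1a was 1.72 in Foxf1 fl/fl and 2.51 in αSMACreER;Foxf1-/- cells, a log2 difference of 0.55 (0.48 to 0.62). That difference was 0.31 with the length trend removed. The pair that binds IL-10 was closer to equal in both genotypes, with 51.4 and 49.6 for Il10ra, the ligand-binding chain (−0.077), and 109 and 108 for Il10rb, the chain shared with other cytokines (−0.039).

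The receptors of IL-1 were an order of magnitude below their ligands. Il1r1, which signals, had 21.03 and 22.4 (0.063), and Il1r2, a decoy that binds IL-1 without signalling, had 28.7 and 24.1 (−0.28). Decoy and signalling receptor stood at a ratio of 1.36 in Foxf1 fl/fl and 1.08 in αSMACreER;Foxf1-/- cells, a log2 difference of −0.34 (−0.59 to −0.098). That direction turned with the length trend removed, to 0.29.

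TLRs held both of the largest rises, Tlr4 at the cell surface and Tlr9 in the endosome. Tlr4 (chr4:66827584-66930284, plus strand), the receptor for bacterial lipopolysaccharide, had an FPKM of 4.83 in Foxf1 fl/fl and 10.5 in αSMACreER;Foxf1-/- cells, from about 184 and 465 reads. Its difference was 1.09 (0.84 to 1.33), or 2.12-fold. Tlr9 (chr9:106222598-106226883, plus strand), the receptor for unmethylated CpG DNA, had 7.77 and 15.6 from about 251 and 579 reads. Its difference was 0.97 (0.75 to 1.18), or 1.955-fold. Both remained past 1.5-fold under all 3 other scalings, with 1.29 for Tlr4 and 1.17 for Tlr9 at an equal FPKM sum.

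The other surface TLRs stayed inside 1.5-fold. Tlr2, which recognises bacterial lipoproteins, was by far the most abundant TLR, with 168 and 155, and its difference was −0.14 (−0.20 to −0.081). Its partners Tlr1 and Tlr6 pointed in opposite directions, with 8.91 and 12.4 for Tlr1 (0.44) and 5.33 and 4.43 for Tlr6 (−0.29), whose interval ran from −0.59 to 0.013. With an equal FPKM sum Tlr1 passed 1.5-fold at 0.64. Tlr1 and Tlr6 share sequence, since 11.5% of the 75-base stretches of the Tlr1 transcript and 9.44% of those of Tlr6 occur in both, so the split of reads between them is uncertain. The ratio of Tlr2 to Tlr4 was 34.8 in Foxf1 fl/fl and 14.7 in αSMACreER;Foxf1-/- cells.

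In the endosomal group only Tlr9 rose. Tlr7, the receptor for single-stranded RNA, was the most abundant of the group, with 31.6 and 27.4, and its difference was −0.23 (−0.35 to −0.11). The ratio of Tlr7 to Tlr9 thus went from 4.07 to 1.76. Tlr3, which senses double-stranded RNA, had 7.05 and 9.19 (0.35), and Tlr13, a rodent sensor of bacterial ribosomal RNA, had 13.9 and 17.8 (0.32). Tlr8 had 4.63 and 4.47 (−0.073). The medians were 0.15 for the 4 surface TLRs that passed the filter and 0.32 for the 5 endosomal ones. With an equal FPKM sum they were 0.35 and 0.53. With the length trend described below removed they were close to each other, at 0.172 and 0.165.

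TLR4 works with CD14, which hands it lipopolysaccharide, and with LY96, which holds the ligand inside the receptor complex. Cd14 was one of the most abundant mRNAs measured, with an FPKM of 1390.5 in Foxf1 fl/fl and 1004 in αSMACreER;Foxf1-/- cells, and its difference was −0.50 (−0.53 to −0.47). Ly96 had 26.1 in both libraries (−0.030). So relative to Foxf1 fl/fl the co-receptor Cd14 was lower and the receptor Tlr4 higher in αSMACreER;Foxf1-/- cells. The ratio of Cd14 to Tlr4 went from 288 to 95.2.

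Myd88, the adaptor of most TLRs and of the IL-1 receptor, had 115 and 90.6 (−0.37). Irak4, the kinase it recruits, had 8.55 and 8.20 (−0.085), and Irak3, a family member that dampens the signal, had 23.7 and 21.98 (−0.13). None of these 5 co-receptor and adaptor genes passed 1.5-fold. All 5 were below 0 with a median of −0.13, but with an equal FPKM sum 2 of 5 were, and the median was 0.071.

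None of the NOD-like receptor and inflammasome genes passed 1.5-fold, and their differences lay between −0.094 and 0.093. Nlrp3, the sensor of the best known inflammasome, was the most abundant, with 78.4 and 77.8 and a difference of −0.037 (−0.11 to 0.034). Pycard, the adaptor that joins sensor and caspase, had 17.99 and 19.5 (0.093), and Casp1, the protease that matures IL-1 beta and IL-18, had 32.9 and 31.3 (−0.094). The cytosolic peptidoglycan sensors Nod1 and Nod2 had 31.9 and 33.4 (0.041) and 9.96 and 10.5 (0.055). All 5 counting intervals spanned 0 on this scale, and with the length trend removed 3 of 5, those of Nlrp3, Nod1 and Casp1, left it out. The median of the 5 was 0.041, −0.14 with the length trend removed and 0.24 when both FPKM sums were made equal. Il1b, the substrate of caspase-1, stood at 49.4 times the level of Casp1 in Foxf1 fl/fl and at 35.5 times in αSMACreER;Foxf1-/- cells.

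Among the 7 genes for NF-kB subunits, inhibitors and a cofactor in this set, Tnfaip3 rose and none fell. Tnfaip3 was no longer past 1.5-fold with the length trend described below removed (0.37). Tnfaip3 (chr10:19000910-19015657, minus strand), a ubiquitin-editing enzyme that ends NF-kB signalling and is itself induced by it, had an FPKM of 199 in Foxf1 fl/fl and 330.4 in αSMACreER;Foxf1-/- cells. Its difference was 0.70 (0.67 to 0.73), or 1.63-fold. The other feedback inhibitor, Nfkbia, which holds NF-kB in the cytoplasm, was the most abundant gene of the group, with 1200.0 and 933 and a difference of −0.39 (−0.42 to −0.36). These 2 inhibitors thus had differences of opposite sign, and the ratio of Nfkbia to Tnfaip3 went from 6.02 to 2.82, a log2 difference of −1.09 that was −0.46 with the length trend removed. The ratio of Tnf to Tnfaip3 went from 2.88 to 1.09, a log2 difference of −1.41 (−1.47 to −1.35) that was −0.83 with the length trend removed.

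The 4 subunit genes in this set lay within 0.25 of no change on the log2 scale. Nfkb1 had 274 and 296 (0.087) and Nfkb2 had 147 and 143 (−0.066), both precursors that are processed to DNA-binding subunits. Rela and Relb, which carry the activation domain, had 86.0 and 78.5 (−0.16) and 104 and 89.5 (−0.24). Nfkbiz, a nuclear cofactor of NF-kB at genes such as Il6, had 105 and 113 (0.073). The ratio of Nfkb1 to Rela was 3.19 in Foxf1 fl/fl and 3.77 in αSMACreER;Foxf1-/- cells. Its log2 difference of 0.24 was 0.063 with the length trend removed.

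Promoter sequence is shown for 3 genes that carry a match to the kB consensus, the 10-base motif NF-kB binds, within 50 bases of the annotated start and that stood on different sides of the threshold. Il6 fell, Tnfaip3 rose and Nfkbia did not pass the threshold. Nfkb2 (−0.066), which did not pass it either, also carries such matches, the nearest 11 bases before a start, and is not shown. The stretches come from RefSeq on GRCm38.p6, in the direction of the gene, with the match in capitals, which for Nfkbia and Tnfaip3 is a match read on the opposite strand.
Il6 (chr5:30013050-30013099, plus strand): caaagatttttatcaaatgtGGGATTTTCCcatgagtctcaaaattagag
Nfkbia (chr12:55492648-55492696, minus strand): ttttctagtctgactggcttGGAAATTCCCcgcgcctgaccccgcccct
Tnfaip3 (chr10:19015411-19015442, minus strand): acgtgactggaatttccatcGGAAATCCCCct

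The matches begin 44, 29 and 12 bases before the RefSeq start of Il6, Nfkbia and Tnfaip3. Both strands of the 250 bases before each start were searched, and 30 of the 40 genes had such a window. Not in the table were Cd14, Il10, Il10ra, Il10rb, Ly96, Nfkb1, Nfkbiz, Relb, Tlr4 and Tlr7. A match was found in 8 of the 30 genes (26.7%), namely Il6, Il1r1, Tlr2, Tlr3, Nlrp3, Nfkb2, Nfkbia and Tnfaip3, against 4.46% of 27025 genes with a window and 5.69% of the 9444 of them that passed the filter here. The median difference was −0.051 for the 8 genes with a match and −0.094 for those without. The motif TATAAA, searched on the strand of the gene in the last 50 bases before the start, was present in Il1a, Il1b and Tnf, or 3 of 30, against 3.15% of all genes and 2.31% of those that passed the filter. A match describes the letters and is not shown to be a binding site.

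The differences followed transcript length in these libraries. Over the 39 genes the difference and the longest annotated transcript had a Spearman's rho of 0.69, against 0.45 over all 12692 genes tested (a description across genes of the same 2 libraries). All 10 genes with a transcript under 2000 bases were below 0, with a median of −0.33, and all genes of that size had a median of −0.30. The 29 longer ones had a median of −0.037, with 15 below 0 and 14 above, and all genes of that size had 0.11. Tnf at 1639 bases, Il1b at 1356, Il10 at 1310 and Cd14 at 1641 are short mRNAs, and Tnfaip3 at 6199 is a long one.

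**Figure D3:**
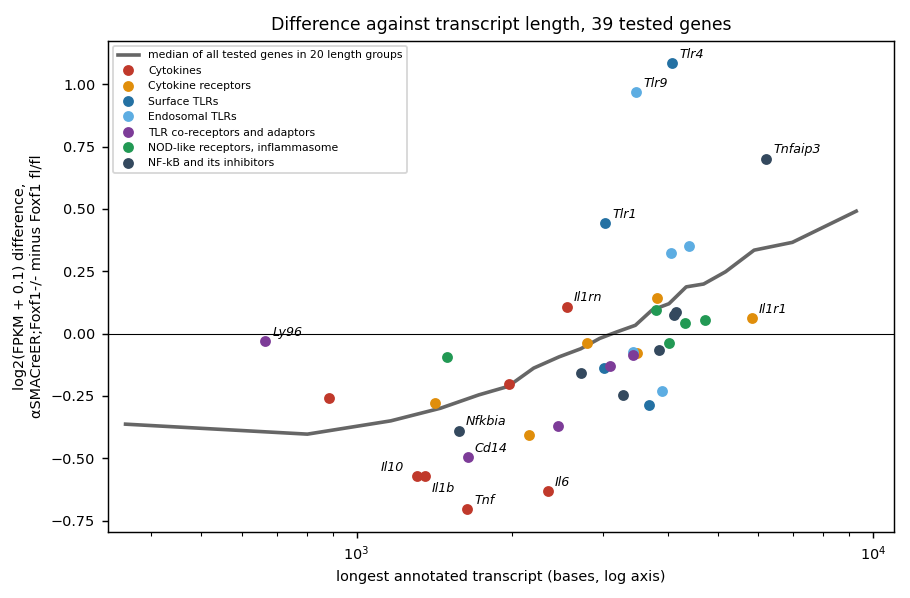
Difference between the genotypes on the log2(FPKM + 0.1) scale against the longest annotated transcript in bases (log axis) for the 39 genes tested, coloured by role, with the line through the median of all tested genes in each of 20 length groups. The line rises from −0.36 in the shortest group to 0.49 in the longest, Tlr4 and Tlr9 lie far above it, and Tnf and Il6 lie below it.

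When each gene was set against the median of its length group, 1 of 20, Tlr4 (0.97) and Tlr9 (0.93) stayed past 1.5-fold and no other of the 39 genes did, higher or lower. The background was then 9.99% of all genes higher and 11.1% lower. Tnf was at −0.46 and Il6 at −0.54 on that scale, Tnfaip3 at 0.37, Il1b at −0.27, Il10 at −0.22, Cd14 at −0.25 and Nfkbia at −0.090. The cytokine group had 4 of 7 genes below 0 and a median of −0.22, while Il1a (0.011) and Il18 (0.14) were above 0. The median of the 39 genes was −0.11, and rho with length was 0.073.

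**Figure D4:**
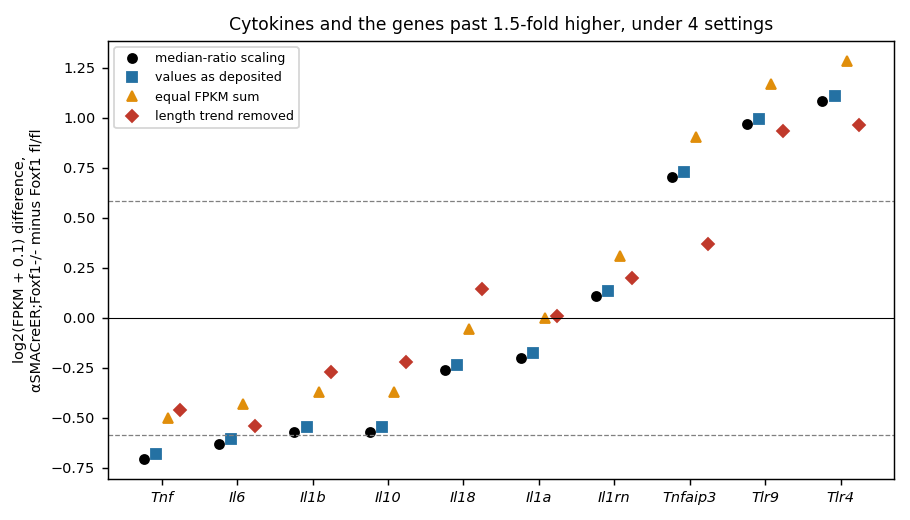
Difference on the log2(FPKM + 0.1) scale for the 7 cytokines, Tnfaip3, Tlr9 and Tlr4 with median-ratio scaling, the values as deposited, an equal FPKM sum and the length trend removed, with dashed lines at 1.5-fold. Tlr4 and Tlr9 lie above the upper line in all 4, Tnfaip3 in 3, and Tnf and Il6 lie below the lower line with the first 2 settings.

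A further 78 genes of the same pathways, none of them among the 40, were read alongside, and 74 passed the filter. Of these 7 rose (9.46%, against 12.8% of all genes) and 4 fell (5.41%, against 13.2%), so both shares were below the background, and the median was 0.088, against 0.0059 over all genes. The rises included Chuk, a kinase that phosphorylates NF-kB inhibitors (13.9 and 26.5, a difference of 0.90), Rel, an NF-kB subunit of lymphoid and myeloid cells (14.9 and 28.4, 0.90), and Tab3, which activates the kinase upstream (0.792 and 1.67, 0.96). Receptor chains of the IL-1 family made up another 3: Il1rl1, the IL-33 receptor (5.56 and 10.7, 0.91), and both chains of the IL-18 receptor, Il18r1 (2.71 and 5.21, 0.89) and Il18rap (4.34 and 7.31, 0.71). The seventh was Il12b, a subunit shared by IL-12 and IL-23 (24.6 and 38.2, 0.61).

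The 4 that fell were Socs1, an inhibitor of cytokine signalling (94.3 and 56.998, −0.75), Il27, a subunit of the cytokine IL-27 (27.3 and 17.6, −0.66), Nfkbib, an NF-kB inhibitor (265 and 178, −0.60), and Il12a. The last, the other subunit of IL-12, was named after its value was seen (2.10 and 1.38, −0.59), and its interval ran from −1.49 to 0.31. With an equal FPKM sum 21 of the 74 rose and none fell. The median of all genes was 0.21 on that scale, and their share past 1.5-fold was not counted there. With the length trend removed 5 rose and 1 fell. Rel (0.53) and Il18rap (0.51) were then no longer past 1.5-fold, and of the falls only Socs1 (−0.73) was.

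Genes known to be switched on by NF-kB were read as a list of 30, of which 29 were matched and passed the filter. Of these 3 rose (10.3%, against 12.8% of all genes) and 6 fell (20.7%, against 13.2%), with a median of −0.18. The falls were Lcn2, an iron-scavenging acute-phase protein (190 and 88.6, a difference of −1.12), the chemokines Ccl3 (1348 and 806, −0.77) and Ccl4 (2703 and 1630.5, −0.75), Marcksl1, an actin-binding protein (1414 and 849, −0.76), Saa3, an acute-phase apolipoprotein (2052 and 1299, −0.68), and Csf3, the granulocyte growth factor (138 and 89.2, −0.66). The rises were Nos2, the inducible nitric oxide synthase (4.02 and 7.48, 0.85), Slc7a2, a transporter of its substrate arginine (25.8 and 47.2, 0.84), and Ptgs2, the inducible cyclooxygenase (67.9 and 103.9, 0.59). With an equal FPKM sum 3 rose, 1 fell and the median was 0.021, against 0.21 for all genes. With the length trend removed 2 rose, 2 fell and the median was −0.042. Of the genes just named, only Lcn2 (−0.83) and Nos2 (0.66) stayed past 1.5-fold on that last scale. The others past it there were Sod2 (−0.67) and Csf2 (0.68), named after their values were seen.

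**Figure D5:**
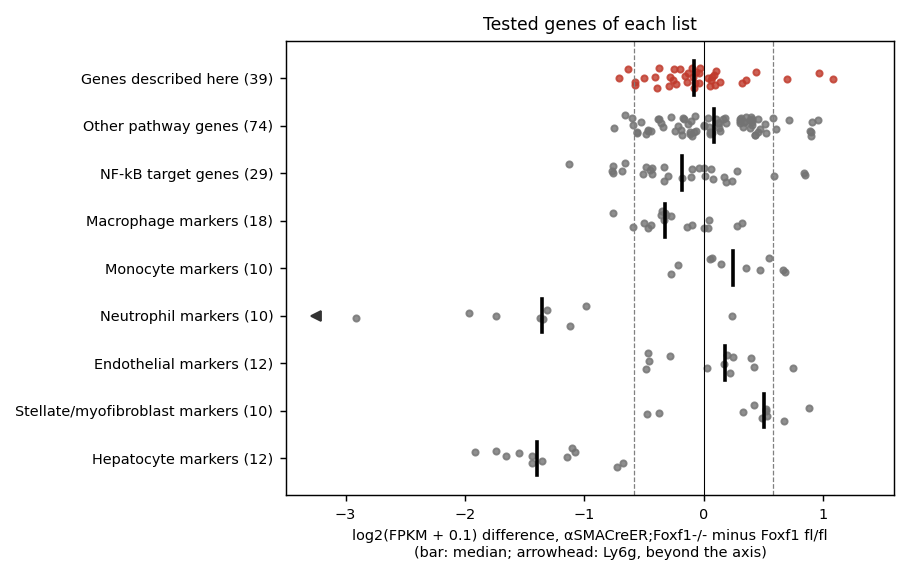
Difference on the log2(FPKM + 0.1) scale for the tested genes of each list, 1 point per gene, with a bar at the median and dashed lines at 1.5-fold. The 39 genes described here lie around a median of −0.077, near the other pathway genes at 0.088, while the neutrophil (−1.36) and hepatocyte (−1.40) markers lie far to the left.

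Counts at overlapping genes limit some of these values. In the annotation 9 of the 40 genes share exon bases with another gene, mostly on the opposite strand, and a strand-aware count is not described for these files. They are Il1a, Il1b, Il10rb, Tlr3, Myd88, Irak3, Irak4, Pycard and Nfkb2. The overlap was more than 10% of exon bases in 5 of them. Tnf, Il6, Tlr4, Tlr9 and Tnfaip3, the 5 genes past 1.5-fold, have none, and no 75-base stretch of their transcripts occurs in another gene.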

How the data were processed

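RNA of the adherent cells was pooled by genotype by the authors, and libraries of about 10 M single-end reads of 75 bases were made with the TruSeq kit. The authors aligned them with the Tophat/Cufflinks pipeline and deposited FPKM per Ensembl gene, that is values already normalized to transcript length and mapped fragments. The submitters' processing notes name TopHat, DESeq and mm10, and versions are not given in the sources used here. Of 38320 entries, 36490 had a symbol in GENCODE M21 (GRCm38), 3 with a status other than OK were left out, and the entry with the highest mean was kept for a repeated symbol.

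Values were scaled by the median ratio over 12016 entries whose FPKM reached 1 in each library, a pseudocount of 0.1 was added before log2, which understates changes of low genes, and the 1.5-fold threshold followed the study's methods without its false discovery rate. Since FPKM are not counts and there was 1 library per genotype, no test was run. Reads were estimated from the spacing of low values (44.4% and 48.2% of 1272 and 1473 such values differed by at most 0.1 from whole reads, so depth is rough), with an assumed fragment of 200 bases on the longest transcript. The scaling, fold change, interval and length steps were tested on simulated counts with known depth and transcript length. The depth estimate and variation between libraries were not part of that simulation. Alternatives changed the pseudocount, scaling, filter, threshold, repeated symbols, the counting interval and transcript length.

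The 40 genes and all lists were chosen with earlier results of these data known. Every one of the 40 is given with its FPKM, and those past 1.5-fold or most abundant in their role with an interval. From the pathway and target lists up to 8 genes in each direction past 1.5-fold with an interval off 0 are named, and from marker lists the first 3, of which 1 is not reported here. Lists of macrophage, monocyte, neutrophil, dendritic, T and NK cell, B cell, endothelial, HSC, hepatocyte and cholangiocyte markers and of immediate-early genes were read. Python 3.11.15 was used with scipy 1.17.1, pandas 2.3.3, matplotlib 3.10.9 and numpy 2.4.6.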

Additional observations from a re-analysis of the deposited data

How the results depend on the processing

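No paired analysis was possible because there was only 1 library for each genotype, and for the same reason no library could be left out. The counts of the 40 genes past 1.5-fold were 3 higher and 2 lower. They were 3 and 2 with a pseudocount of 1 or 0.01, the values as deposited, upper-quartile scaling, no filter on low values, a mean FPKM of at least 5, summed repeated symbols, or an interval off 0 also required. A 2-fold threshold left 1 higher (Tlr4) and 0 lower. With an equal FPKM sum 4 were higher and 0 lower, which moved the median from −0.077 to 0.12, with all genes at 0.21. The share of all genes past 1.5-fold was not counted on that scale. With the length trend removed 2 were higher and 0 lower. Of the 11 alternatives, Tlr4 was past the threshold in 11, Tlr9 in 10, Tnfaip3 in 9, and Tnf and Il6 in 8 each. For the other pathway genes, against 7 higher and 4 lower, an equal FPKM sum gave 21 and 0, a 2-fold threshold 0 and 0, the values as deposited and upper-quartile scaling 2 lower each, and removal of the length trend 1 lower. The cause was not tested beyond the construction of each alternative. Of the differences of the 40 single genes, 29 left their counting interval under an equal FPKM sum, 24 with the length trend removed, 1 with the values as deposited and 1 with upper-quartile scaling. The same sign under each of these alternatives was found for 19 of the 39 genes. Depth limits the low TLRs most, with about 7.11 and 10.6 reads for Tlr5, and the interval of Tlr6 spans 0.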

Other observations

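Other leukocyte and liver cell markers were measured in the same libraries. Endothelial markers summed to an FPKM of 1514 in Foxf1 fl/fl and 1382 in αSMACreER;Foxf1-/- cells, and 1 of 12 rose (Vwf), with a median of 0.18 (Pecam1 had 93.3 and 96.6, Stab2 had 63.996 and 85.9, and Cdh5 had 98.4 and 112.5). With the length trend removed that median was −0.051. Dendritic cell markers had a median of 0.13 with 1 of 9 that rose, Clec9a (Itgax had 21.7 and 32.7, Flt3 had 4.31 and 4.09, and Xcr1 had 2.02 and 2.22). T and NK cell markers had a median of 0.27 with 2 of 8 that rose, Cd4 (6.34 and 14.1) and Trbc2 (Cd3e had 8.02 and 9.88, and Cd3d had 7.90 and 8.955). Of 10 B cell markers 1 rose and 2 fell with a median of 0.16 (Cd79a had 24.6 and 23.97, and Ms4a1 had 2.76 and 3.99). The genes of opposite direction were Pax5 (2.40 and 9.92) and the plasma cell genes Jchain (78.8 and 26.02) and Mzb1 (13.3 and 6.25). All genes named as having risen or fallen in these lists were named after their values were seen. Cholangiocyte markers had a median of −0.29 with 1 of 7 that fell, Cldn4 (Krt19 had 39.7 and 29.5, Krt7 had 4.91 and 6.91, and Epcam had 8.38 and 5.65).

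Immediate-early genes, which respond within minutes to cell isolation and to cytokines, summed to 2892 and 2459 with a median of −0.039, and 1 of 12, Ier2, fell (Fos had 96.5 and 112.7, Fosb had 38.9 and 43.2, and Jun had 115.7 and 116.2). Zfp36, whose product binds AU-rich mRNAs such as that of Tnf, had an FPKM of 783 and 623, a difference of −0.36, and was named after its value was seen. Socs3, an inhibitor of IL-6 signalling, was the most abundant of the other pathway genes and had 1455 and 1374 (−0.11), also named after its value was seen.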
